A study of Mus musculus with 3 samples.

Results

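The comparison described here sets the RNA-seq library labelled Tam against the library labelled WT, both from E14 mouse ESCs, a male embryonic stem cell line grown in serum medium with LIF. It holds the genes listed at 1 FPKM (fragments scaled by transcript length and by library size) or more in at least 1 of both libraries, which left 12705 of 23953 gene rows. The cells labelled Tam came from a clonal line in which loxP sites flank conserved region 4 of the *Oct4* distal enhancer (DE) on both alleles. That line also carries lentiviral rtTA, a doxycycline-inducible mouse *Oct4* transgene and CreERT2, a Cre recombinase that enters the nucleus when it binds 4-hydroxytamoxifen, and it received 4-hydroxytamoxifen for 48 h without doxycycline. The other library, labelled DoxTam, came from the same line given both agents for 48 h, and its levels are set beside those of named genes. Where 3 levels of a gene are given, they follow the order WT, Tam, DoxTam. The labels list the tamoxifen-inducible and the doxycycline-inducible construct for all 3 libraries, and the sources used here do not give whether parental E14 cells or floxed cells without treatment were taken as WT. Enhancer deletion, Cre activity and exposure to 4-hydroxytamoxifen cannot be told apart in this pair of libraries, nor can clonal origin if WT was the parental line. Each condition has 1 library, so no fold below has a replicate check and no p-value is given.

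OCT4, encoded by *Pou5f1*, binds DNA together with SOX2 at joined SOX and POU motifs and keeps ESCs pluripotent, and the DE drives *Pou5f1* in naive ESCs and germ cells. ESCs in LIF and serum depend on glycolysis, import amino acids at a high rate, cycle with a short G1 phase and hold genes of the first embryonic lineages at low levels. Metabolic and stress pathways in such cells answer to a few factors: SREBP2 for sterol synthesis, ATF4 for amino acid shortage, HIF1 for low oxygen and NRF2 for electrophiles. Tamoxifen compounds bind estrogen receptors and can also bind sterol isomerase and reductase enzymes of cholesterol synthesis.

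The guides that set the ends of the floxed segment and the SOX-POU site between them are shown because they define what the treated cells can lose. Positions are mm9, letters run 5′ to 3′ on the minus strand, capitals mark the PAM in a guide and the SOX-POU site in the window.
CR4 guide (chr17:35640914-35640933): cccacacccagttcctcccaGGG
DE3′ guide (chr17:35641748-35641767): cagtctgaggatcccattacTGG
SOX-POU window (chr17:35640938-35641068): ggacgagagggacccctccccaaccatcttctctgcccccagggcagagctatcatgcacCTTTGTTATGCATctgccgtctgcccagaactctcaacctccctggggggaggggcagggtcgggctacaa
The segment between the loxP insertion points spans 816 bp (chr17:35640938-35641753) and ends 1223 bp before the deposited *Pou5f1* locus. The SOX motif CTTTGTT and the POU motif ATGCAT each occur once in it, side by side at chr17:35640996-35641008.

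*Pou5f1* stood at 664, 529 and 458 FPKM in WT, Tam and DoxTam, a log2 fold of -0.33 for Tam over WT (-0.18 after removal of the GC trend described below). The library labelled Tam, from cells meant to lose the enhancer on both alleles, thus held most of the WT level and was inside 1.5-fold, and the library labelled DoxTam, which should hold transgenic *Oct4*, was the lowest of the 3. Neither level is what its label would lead to, so the names Tam and DoxTam stand here for what the labels say. All 8 ESC markers were measured and 0 of them reached 1.5-fold, with a summed level of 2832 FPKM in WT and 2589 FPKM in Tam. A wider list of 35 core pluripotency factors, all measured, did hold calls at 1.5-fold. In it 2 were higher and 3 lower (5.71% and 8.57%, against 6.98% and 3.59% of all genes). Their median log2 fold was -0.11, and 23 folds were below 0. With the GC trend removed 0 were higher and 2 lower of the 34 with a GC value. *Nanog* had 186 FPKM in WT and 228 FPKM in Tam, and *Esrrb* had 186 FPKM in both. Of the polarity gene *Llgl2* and the adaptor gene *Grb7*, both picked out by the study, the first went from 84.8 FPKM to 61.6 FPKM and the second from 20.1 FPKM to 15.03 FPKM. Both were lower in Tam and inside 1.5-fold, at -0.45 and -0.39. Markers of other cell types summed to 27.2 FPKM in WT and 33.7 FPKM in Tam for trophectoderm (6 of 8 measured), 3.93 and 3.74 FPKM for primitive endoderm (1 of 7), 1.35 and 3.95 FPKM for mesoderm (1 of 5), 10.7 and 12.7 FPKM for ectoderm (2 of 5), and 85.4 and 79.8 FPKM for feeder fibroblasts (2 of 7, with *S100a4* listed at 0 throughout). Nearly all of the feeder sum was *Vim*, at 80.2 FPKM in WT and 76.9 FPKM in Tam, and *Thy1* was lower (4.52 and 2.27 FPKM, a log2 fold of -0.75). *Col1a1*, *Col1a2*, *Col3a1* and *Postn* were under 1 FPKM in both libraries. In bulk RNA, fewer cells of a type and less RNA per cell cannot be told apart.

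At 1.5-fold, 887 of the 12705 genes were higher in Tam (6.98%) and 456 were lower (3.59%), and the median log2 fold was 0.02. These shares are the background for each list count below, and a list whose share is near them is not set apart from all genes. The lists were chosen with earlier results of these data known and partly follow them. A list share above the background is therefore a description and not independent evidence of a shift. Folds are log2((FPKM + 1)/(FPKM + 1)), which understates the change of low genes, and values below that carry no unit are such log2 folds. At 2-fold the counts were 270 higher and 93 lower. Of the higher genes 321 lay under 1 FPKM in WT, and 69 of those were listed at 0 there. The higher share was 15.7% among genes with a mean level under 2 FPKM, 4.96% between 5 and 20 FPKM and 8% above 100 FPKM. The split of the calls depended on scaling: it was 1372 higher and 272 lower after setting both libraries to the same summed FPKM, which moves the median fold up by 0.127, and 764 higher and 673 lower after each library's olfactory receptor mean was subtracted from its levels. The first of these totals is mostly small RNA, which took 63.9% of the summed FPKM in WT and 59.8% in Tam.

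The libraries also differed at low levels and in composition. If the commonest low level above 0 stands for 1 fragment in each library, which could not be settled from the levels, a 2-kb gene at 1 FPKM rests on about 21.9 fragments in WT and 10.9 in Tam. Genes listed at 0 were nevertheless fewer in Tam, 3667 against 5333 in WT, so the order of depth is not known. Olfactory receptor genes, which ESCs should not transcribe, were above 0 for 380 of 1117 in WT and 790 of 1117 in Tam, with a mean of 0.0718 and 0.285 FPKM. Their 95th percentile was 0.251 and 0.794 FPKM, so levels below about 1 FPKM in Tam are within the range of these genes. Among the 11292 genes with a transcript GC value, folds ran with GC content. The median fold was 0.24 in the GC-poorest 10% of genes (median 40.2% GC, 146 higher and 8 lower of 1130) and -0.19 in the GC-richest 10% (60.3% GC, 32 higher and 115 lower). Removing this trend left 600 higher and 255 lower of these genes, against 695 and 340 before. The count after removal is given beside the main lists, and the part of GC content in the calls was not tested further.

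**Figure D1:**
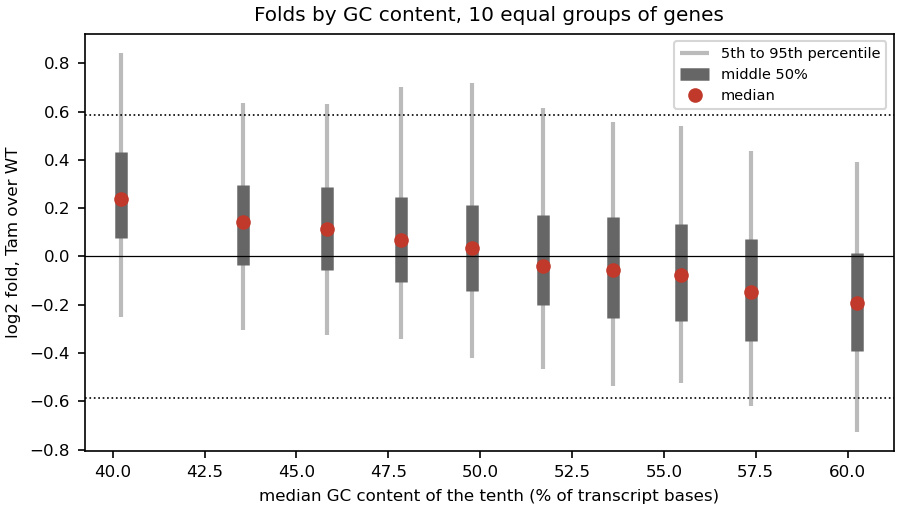
Log2 fold of Tam over WT (y axis) in 10 equal groups of genes ordered by transcript GC content (x axis, median of each group in percent); points are medians, thick bars the middle 50% and thin bars the 5th to 95th percentile of genes. The median falls from 0.24 at 40.2% GC to -0.19 at 60.3% GC.

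The highest folds among named genes at 5 FPKM or more were of genes with little RNA in WT, and DoxTam mostly lay near WT. Picking genes by a high Tam level against WT favours a low WT level and a Tam level apart from the other libraries. *Aox3*, which encodes an aldehyde oxidase, was at 0.118, 18.7 and 0.271 FPKM in WT, Tam and DoxTam, a log2 fold of 4.14. *Ly6a*, the GPI-anchored antigen Sca-1, was at 0.545, 18.5 and 0.991 FPKM, a log2 fold of 3.66. *Aspa*, the aspartoacylase that splits N-acetylaspartate, was at 0.162, 9.26 and 0.1703 FPKM, a log2 fold of 3.14. In all 3 genes WT and DoxTam sat under 1 FPKM, and Tam stood apart from both. These 3 genes reached 5 FPKM only in Tam, so their place is a description of how they were picked as well. *Nefm* and *Nefl*, subunits of neurofilaments, went from 2.34 to 24.3 FPKM and from 8.45 to 35.3 FPKM, while DoxTam held 1.303 and 5.94 FPKM, below WT for both. *Epha4*, an ephrin receptor, was at 4.22, 29.7 and 6.72 FPKM. The loci of *Nefm*, *Epha4* and *Peg3os* are shared in the tables with an overlapping gene, so reads may be split between them. The other genes among the 15 highest were *Arl14epl*, the MHC class II gene *H2-Eb1*, *Sh2d4b*, *Plekhg1*, the imprinted antisense RNA *Peg3os*, the metalloprotease gene *Mep1b*, the homeobox gene *Meis2*, the ATP-gated channel gene *P2rx7* and *Zfp951*, with log2 folds from 1.91 to 3.25. *Peg3os* differed from the rest in that DoxTam shared most of the difference (0.196, 5.43 and 3.95 FPKM).

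The 15 lowest folds were smaller in size, and DoxTam was lower than WT for every one of them. Picking genes by a high WT level against Tam favours this, since DoxTam is set against the same WT library. How often it held over all lower genes was not counted. The 13 reported here lay between -1.51 and -1.07. *Khdc3*, a maternal-effect gene of the oocyte's subcortical complex, was at 15.8, 4.93 and 10.005 FPKM in WT, Tam and DoxTam. *Inhbb*, the activin B subunit, was at 24.2, 8.24 and 12.3 FPKM. *Egr1*, an immediate early transcription factor downstream of ERK, was at 20.9, 8.37 and 9.82 FPKM. For *Khdc3* and *Inhbb* Tam was the lowest library, and for *Egr1* both treated libraries lay close together. *Dusp9*, a phosphatase that dampens ERK, was at 111, 51.2 and 53.7 FPKM. *Stra8*, a retinoic acid target of premeiotic germ cells, was at 59.5, 27.9 and 31.2 FPKM. *Smarcd3*, a subunit of BAF remodelers, was at 7.48, 2.78 and 4.43 FPKM. The rest were *Map1a* and *Pet117* (loci shared with another gene), *Mef2b*, *Hist1h2aa*, *Itpka*, the transglutaminase gene *Tgm2* and *Bai1*. Only *Dusp9* and *Stra8* among these 13 stood above 50 FPKM in WT.

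**Figure D2:**
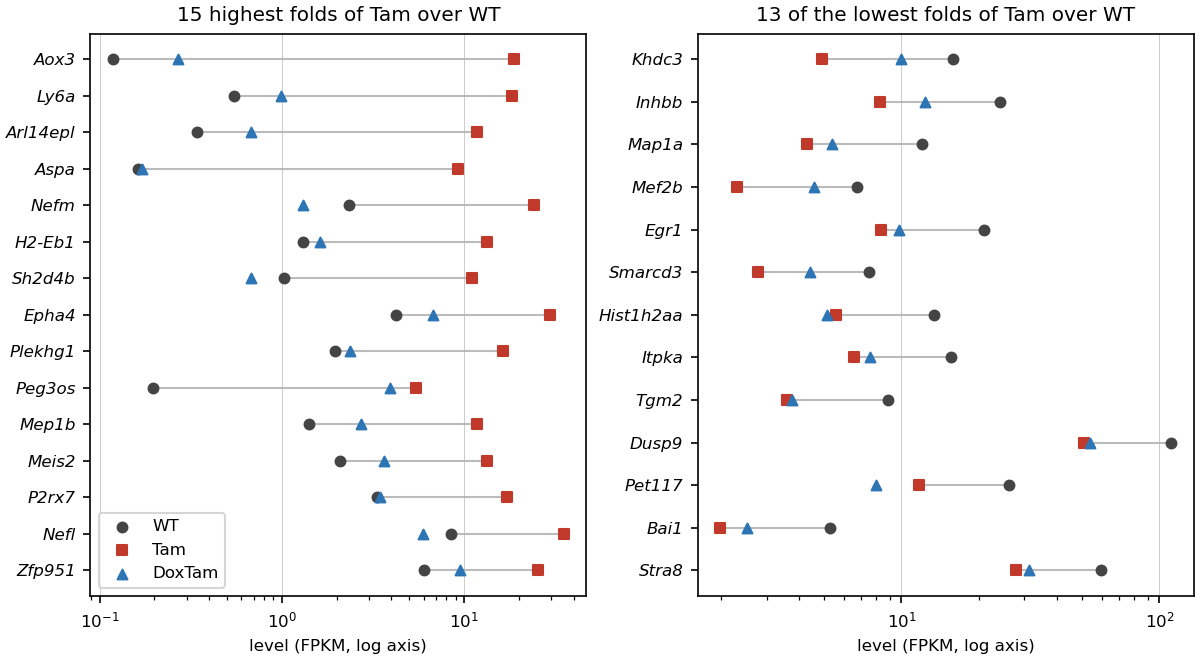
Levels (x axis, FPKM, log axis) of the 15 named genes with the highest (left) and 13 of those with the lowest (right) fold of Tam over WT, 1 point per library and gene. On the left the Tam points stand apart to the right with DoxTam near WT for most genes, and on the right both treated libraries lie to the left of WT.

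Genes of cholesterol synthesis, transport and control leaned higher in Tam. Of 38 measured list members 9 reached 1.5-fold higher and 0 lower (23.7% against 6.98% of all genes), 32 had a fold above 0, and the median fold was 0.36 (0.28 after removal of the GC trend, with 9 higher). Among enzymes, *Sqle*, the squalene epoxidase, was at 26.9, 56.5 and 38.6 FPKM in WT, Tam and DoxTam, a log2 fold of 1.04. *Msmo1*, a sterol methyl oxidase, was at 26.9, 53.4 and 40.7 FPKM, a log2 fold of 0.96. *Cyp51*, the lanosterol demethylase, was at 12.97, 23.8 and 20.8 FPKM, a log2 fold of 0.83. The order of the libraries was the same for all 3, with DoxTam between WT and Tam. *Nsdhl* and *Sc5d*, which act after CYP51, had log2 folds of 0.74 and 0.65, and *Fdft1*, the squalene synthase, 0.61 at a locus shared with another gene. These early enzymes were inside 1.5-fold: *Acat2* was at 0.39, *Mvk* at 0.37, *Fdps* at -0.05 and *Pmvk* at -0.39. *Hmgcs1*, the HMG-CoA synthase, is listed at 0 in all 3 libraries, which can be a failed estimate. The late reductase gene *Dhcr7* had a log2 fold of 0.04.

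On the transport and control side, *Insig1*, which holds SREBP in the endoplasmic reticulum and is itself a sterol target, was at 11.4, 18.5 and 15.1 FPKM in WT, Tam and DoxTam, a log2 fold of 0.66. *Npc2*, which carries cholesterol out of lysosomes, was at 24.7, 46.7 and 28.8 FPKM, a log2 fold of 0.89. The genes of the regulators themselves were inside 1.5-fold, at 0.10 for *Srebf2*, 0.12 for *Srebf1* and 0.04 for *Scap*. DoxTam lay between WT and Tam for all 9 of the higher genes, a place that picking genes by Tam against WT favours. Of genes called higher in other lists, this held for 8 of 8 imprinted and 9 of 10 lysosome and autophagy genes. Among Wnt targets and inhibitors it held for 1 of 6. It is thus not particular to sterol genes, and its share over all higher genes was not counted. The member with the highest WT level was *Apoe*, at 416 and 578 FPKM in WT and Tam, a log2 fold of 0.47.

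Promoters of these genes are shown because NF-Y, which binds CCAAT, works beside SREBP at sterol genes. Windows are cut from RefSeq promoters (GRCm38.p6, 250 bases before to 50 after the start), read in the direction of the gene, with CCAAT or its reverse complement ATTGG in capitals.
*Msmo1* (chr8:64733614-64733753, minus strand): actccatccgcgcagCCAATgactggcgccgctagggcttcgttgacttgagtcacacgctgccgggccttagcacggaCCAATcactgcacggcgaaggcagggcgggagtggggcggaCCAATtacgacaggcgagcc
*Cyp51* (chr5:4104707-4104741, minus strand): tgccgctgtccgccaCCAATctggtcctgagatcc
*Nsdhl* (chrX:72918397-72918570, plus strand): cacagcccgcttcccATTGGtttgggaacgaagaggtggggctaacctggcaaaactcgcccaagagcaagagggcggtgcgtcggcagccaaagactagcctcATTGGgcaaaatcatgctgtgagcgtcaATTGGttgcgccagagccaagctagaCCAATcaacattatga
*Sc5d* (chr9:42264305-42264339, minus strand): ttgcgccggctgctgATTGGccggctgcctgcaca
*Insig1* (chr5:28071181-28071215, plus strand): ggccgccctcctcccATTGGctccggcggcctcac
*Npc2* (chr12:84773099-84773202, minus strand): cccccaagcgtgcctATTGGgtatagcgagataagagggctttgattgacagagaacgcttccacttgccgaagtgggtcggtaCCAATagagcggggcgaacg
CCAAT on either strand occurred in 13 of the 15 promoters matched among the 20 measured enzymes, in 39.5% of the 9989 promoters of measured genes and in 37.9% of all 27025 promoters. All 6 matched promoters of the 9 higher genes, enzymes or not, held it, against 20 of 28 over the whole list. The promoters of *Sqle* and *Fdft1* were among those not matched. Of the matched promoters of higher genes in lists described below, CCAAT was in 5 of 6 for glutathione transferases. It was in 4 of 5 for Wnt targets and inhibitors and in 5 of 9 for glutathione and antioxidant genes, so it is not particular to sterol genes. The sterol element TCACNCCAC, searched on both strands, was in 0 of these 15 enzyme promoters and in 1.22% of all promoters. The promoter of *Hmgcs1*, which is not counted here because the gene was not measured, holds it.

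Other lipid pathways had fewer calls. In fatty acid synthesis 3 of 26 measured genes were higher and 2 lower (GC trend removed, 2 and 0). These 3 and 2 are 11.5% and 7.69%, against 6.98% and 3.59% of all genes. The stearoyl-CoA desaturase gene *Scd1* was at 5.47, 16.6 and 9.37 FPKM in WT, Tam and DoxTam, a log2 fold of 1.44, and *Scd2*, at a shared locus, at 36.2 and 69.1 FPKM, a log2 fold of 0.91. The desaturases were higher like the sterol enzymes above, while *Thrsp* and *Mid1ip1*, which promote lipogenesis, were lower at -0.59 and -0.68. *Acly*, the citrate lyase with the highest WT level of the list, had a log2 fold of 0.32. Of 29 fatty acid oxidation genes 2 were higher and 0 lower, the carnitine carrier *Slc25a20* (17.4 FPKM against 48.3 FPKM, 1.42) and the peroxisomal oxidase *Acox3* (6.96 FPKM against 18.04 FPKM, 1.26, shared locus). In the TCA list 1 of 23 genes was higher, *Idh1*, the cytosolic NADPH-producing isocitrate dehydrogenase, at 34.8, 116 and 57.97 FPKM, a log2 fold of 1.71.

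**Figure D3:**
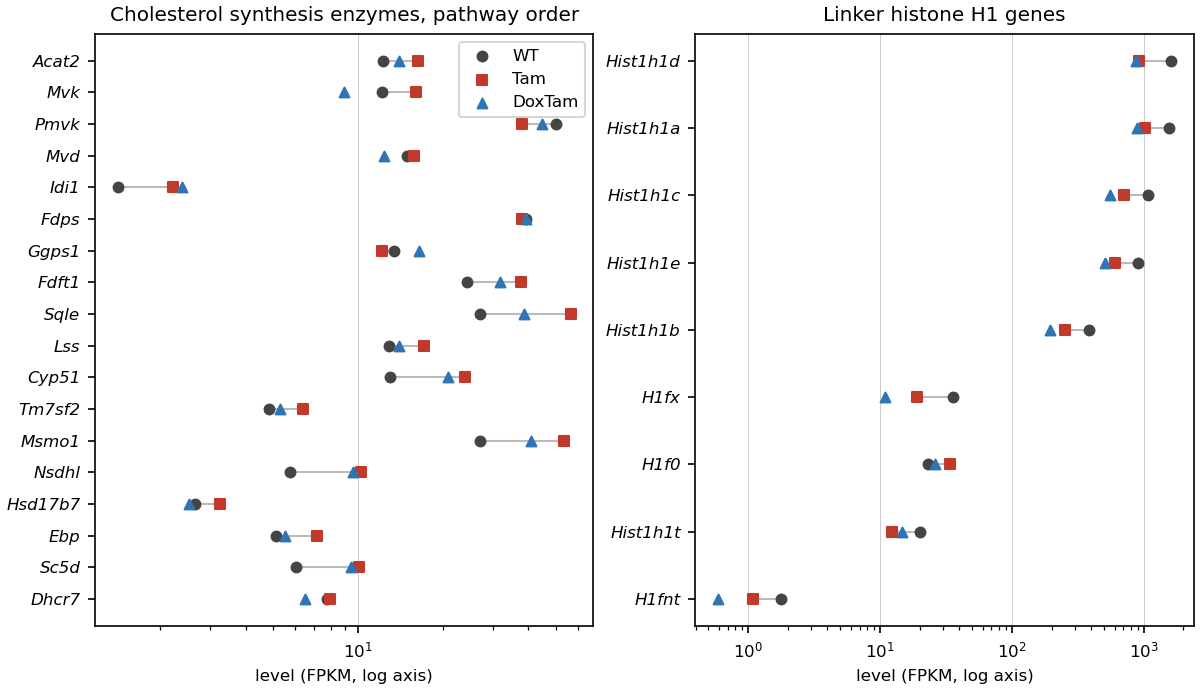
Levels (x axis, FPKM, log axis) of 18 measured cholesterol synthesis enzymes in pathway order (left) and of the 9 measured linker histone genes by WT level (right), 1 point per library. The 6 sterol enzymes past 1.5-fold have Tam highest and DoxTam between, and the abundant linker histones have both treated libraries below WT.

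Hypoxia genes leaned the same way. Of 25 measured members 6 were higher and 0 lower (24%), 21 had a fold above 0, the median was 0.40, and 4 were higher after removal of the GC trend. *Bnip3*, a mitophagy receptor and HIF1 target, was at 17.4, 40.9 and 45.3 FPKM in WT, Tam and DoxTam, a log2 fold of 1.19. *Slc2a3*, the glucose transporter GLUT3, was at 265, 461 and 374 FPKM, a log2 fold of 0.80. Both treated libraries were above WT for these 2 genes. The collagen-modifying enzymes *Plod2* (shared locus) and *P4ha1* had log2 folds of 0.73 and 0.63, the histone demethylase *Kdm3a* 0.65 and *Pfkfb3*, which makes the activator of phosphofructokinase, 0.66. Other HIF1 targets were inside 1.5-fold, with log2 folds of -0.06 for *Vegfa*, 0.00 for *Slc2a1* and -0.33 for *Pdk1*, and *Hif1a* itself was at 0.10. In glycolysis 3 of 32 genes were higher and 1 lower (9.38% and 3.13%), near the shares of all genes (6.98% and 3.59%). Among them were the aldolase *Aldoc* at 1.09 (7.32 to 16.7 FPKM) and the enolase *Eno3* at -0.64. The pyruvate kinase *Pkm*, at 1010.0 FPKM in WT the highest of the list, was at 0.05.

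Glutathione and antioxidant genes had 9 higher and 0 lower among 49 measured (18.4%, and 9 after removal of the GC trend), with 35 folds above 0 and a median of 0.20. *Nqo1*, the quinone reductase most used as a readout of NRF2, was at 8.16, 18.4 and 12.7 FPKM in WT, Tam and DoxTam, a log2 fold of 1.08. *Gstm1*, a mu-class glutathione transferase, was at 17.2, 36.05 and 16.5 FPKM, a log2 fold of 1.03. *Gstm2*, its neighbour, was at 4.97, 10.6 and 6.38 FPKM, a log2 fold of 0.96. For *Gstm1* DoxTam was at the WT level. The ferritin gene *Ftl1*, the most abundant of the list, had a log2 fold of -0.12. Over the whole glutathione transferase family 6 of 17 measured members were higher (35.3%), 16 had a fold above 0, and the 6 were *Gstm1*, *Gstm2*, *Gstm3*, *Gstm6*, *Gstm7* and *Gsta3*. The mu-class genes are close copies in 1 cluster, so their counts may share reads and they are not separate observations. *Gsta4*, with the highest WT level at 251 FPKM, was at 282 FPKM in Tam.

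Lysosome and autophagy genes had 10 higher and 1 lower of 48 measured (20.8% against 6.98% of all genes), or 8 and 0 of 46 after removal of the GC trend, where 5.31% of all genes were higher. *Calcoco2*, the autophagy receptor NDP52, was at 7.74, 25.6 and 2.64 FPKM in WT, Tam and DoxTam, a log2 fold of 1.61. *Hexa*, a lysosomal hexosaminidase, was at 27.3, 54.9 and 50.4 FPKM, a log2 fold of 0.98. *Map1lc3a*, an LC3 isoform, was at 28.5, 16.3 and 19.9 FPKM, a log2 fold of -0.77. *Calcoco2* was the exception among the 10 higher genes in that DoxTam lay below WT. In the proton pump that acidifies lysosomes 2 of 18 measured V-ATPase subunits were higher, *Atp6ap2* at 0.80 and *Atp6v0d1* at 0.66, and 14 folds were above 0.

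Several ATF4 targets were lower in Tam. In the integrated stress response list 7 of 29 measured genes were lower and 2 higher (24.1% lower against 3.59% of all genes), 21 folds were below 0, the median was -0.22, and 6 were lower after removal of the GC trend. *Phgdh*, the first enzyme of serine synthesis, was at 37.5, 18.5 and 23.5 FPKM in WT, Tam and DoxTam, a log2 fold of -0.98. *Psat1*, the next enzyme, was at 106, 66.6 and 91.3 FPKM, a log2 fold of -0.66. *Mthfd2*, the mitochondrial folate enzyme that uses serine carbon, was at 45.6, 27.1 and 37.7 FPKM, a log2 fold of -0.73. In all 3 genes Tam was the lowest library and DoxTam lay between. The leucine transporter *Slc7a5* went from 75.6 to 45.4 FPKM, and *Trib3*, *Aldh18a1* and *Pck2* had log2 folds of -0.67, -0.65 and -0.65. *Atf4* itself was at 144 and 151 FPKM (0.07). Members differed in direction, and the glutamine transporter *Slc38a2* and the hormone gene *Stc2* were higher, at 0.67 and 0.67, and asparagine synthetase *Asns*, at 166 FPKM in WT, had a log2 fold of 0.42. In the serine, glycine and folate list 4 of 28 were lower and 1 higher, the median was -0.04 and 15 folds were below 0, with *Psph*, the last serine enzyme, at -0.64 and *Gcsh* of the glycine cleavage system at 0.62.

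Genes that feed translation shifted by less than 1.5-fold as a body. Of 22 cytoplasmic tRNA synthetases 2 were lower and 0 higher, 19 had a fold below 0, and the median was -0.32 (-0.29 with the GC trend removed). The lowest were *Yars*, at a shared locus, at 95.2 and 58.9 FPKM (-0.68) and *Vars* at 87.1 and 54.9 FPKM (-0.66), and *Gars*, the most abundant, was at -0.52. *Qars* stood against the rest at 0.31. The 17 mitochondrial synthetases had 0 members past 1.5-fold, a median of -0.21 and 15 folds below 0. Of 52 ribosome biogenesis genes 2 were lower and 41 folds were below 0, with a median of -0.21. The 2 were *Rrp9*, a snoRNP protein (99.3 FPKM against 58.9 FPKM, -0.74), and *Tcof1*, which brings polymerase I to rDNA (123 FPKM against 75.4 FPKM, -0.70), while *Npm1*, at 1135 FPKM the most abundant, was at 0.22. After removal of the GC trend *Vars*, *Rrp9* and *Tcof1* were inside 1.5-fold, at -0.45, -0.56 and -0.55. The 30 nucleotide synthesis genes had 0 past 1.5-fold, 24 folds below 0 and a median of -0.20. Scaling to the same summed FPKM brings these medians nearer to 0 by about the shift given above. The 82 cytoplasmic ribosomal protein genes, in contrast, had 6 higher, 0 lower and a median of 0.08, and many of them share reads with pseudogenes.

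**Figure D4:**
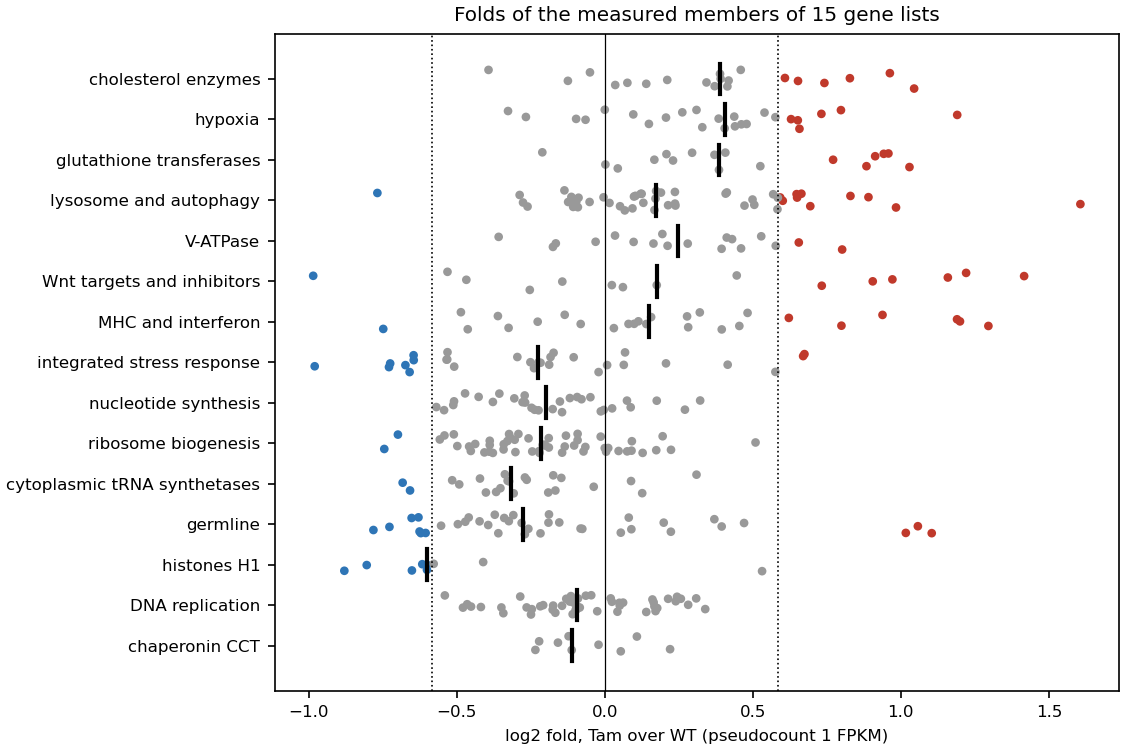
Log2 folds of Tam over WT (x axis, pseudocount 1 FPKM) of the measured members of 15 gene lists (rows), 1 point per gene, red where higher and blue where lower by 1.5-fold (dotted lines), with a black bar at the median. The sterol, hypoxia and glutathione transferase lists sit mostly to the right of 0, and the linker histone, tRNA synthetase and ribosome biogenesis lists mostly to the left.

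Linker histone genes leaned lower in Tam. The 9 measured H1 genes had 6 lower and 0 higher (66.7% against 3.59% of all genes), or 2 lower of the 8 with a GC value after removal of the GC trend, with a median of -0.60, and their mRNAs mostly end in a stem loop in place of a poly(A) tail. *Hist1h1d* was at 1611, 923 and 869 FPKM in WT, Tam and DoxTam, a log2 fold of -0.80. *Hist1h1a* was at 1556, 1026 and 886 FPKM, a log2 fold of -0.60. *Hist1h1c* was at 1080.5, 704 and 553 FPKM, a log2 fold of -0.62. These 3 were the most abundant H1 genes in WT, and DoxTam was lower still for each. *Hist1h1b* and the testis gene *Hist1h1t* had log2 folds of -0.60 and -0.65, *Hist1h1e* was just inside 1.5-fold at -0.58, and *H1fx*, outside the histone clusters, was at -0.88. *H1f0*, the H1 of resting and differentiating cells, ran opposite at 23.2 and 34.05 FPKM (0.53). After removal of the GC trend *Hist1h1d* (-0.98) and *Hist1h1t* (-0.63) were still past 1.5-fold, while *Hist1h1a*, *Hist1h1b* and *Hist1h1c* were inside it at -0.54, -0.51 and -0.54, *H1fx* was at -0.43, and the median was -0.52. Core histones shifted less: 6 of 30 H2A and H2B genes were lower and 1 higher (median -0.20), 1 of 21 H3 and H4 genes was lower (median -0.07), and many of these genes are near copies of each other. Of 9 variants 2 were lower, among them *H2afx*, the variant phosphorylated at DNA breaks (366 FPKM against 235 FPKM, -0.63).

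The H1 promoters are shown because they share an upstream box, AAACACA, beside a CCAAT box. Windows are as above, with AAACACA and CCAAT (either strand) in capitals.
*Hist1h1d* (chr13:23554895-23555000, plus strand): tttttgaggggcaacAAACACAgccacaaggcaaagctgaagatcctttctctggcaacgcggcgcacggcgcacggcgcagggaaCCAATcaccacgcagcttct
*Hist1h1c* (chr13:23738680-23738772, plus strand): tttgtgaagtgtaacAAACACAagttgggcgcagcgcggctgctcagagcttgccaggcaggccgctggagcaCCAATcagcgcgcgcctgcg
*Hist1h1e* (chr13:23622591-23622688, minus strand): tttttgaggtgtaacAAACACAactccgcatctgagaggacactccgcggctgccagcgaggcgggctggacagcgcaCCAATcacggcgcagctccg
*Hist1h1b* (chr13:21780659-21780808, minus strand): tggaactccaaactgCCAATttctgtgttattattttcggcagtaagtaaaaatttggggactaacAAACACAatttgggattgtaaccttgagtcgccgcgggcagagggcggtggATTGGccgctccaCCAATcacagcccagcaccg
*Hist1h1t* (chr13:23695682-23695765, plus strand): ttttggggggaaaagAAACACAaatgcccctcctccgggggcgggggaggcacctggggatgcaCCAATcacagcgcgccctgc
*Hist1h1a* (chr13:23763597-23763631, plus strand): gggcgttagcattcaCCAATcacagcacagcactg
AAACACA was in 5 of the 9 measured H1 promoters and CCAAT in 6, against 3.88% and 39.5% of the promoters of measured genes and 7.14% and 37.9% of all promoters. *Hist1h1e* holds both boxes and was inside 1.5-fold, *Hist1h1a* holds CCAAT alone and was lower, and *H1fx*, with neither in its window, was lower too. Among chromatin remodelers 5 of 49 genes were lower and 1 higher (10.2% and 2.04%, against 3.59% and 6.98% of all genes). Besides *Smarcd3*, the lowest were *Dpf1*, a neuronal BAF subunit (-0.88), and *Smarca1*, the SNF2L ATPase (-0.83), while *Dpf3* was higher (0.74).

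Several Wnt targets were higher in Tam. Among 15 measured targets and inhibitors 6 were higher and 1 lower (background 6.98% and 3.59%), or 7 and 2 with the GC trend removed. Of the 12 receptors and 17 effectors 0 reached 1.5-fold, and 1 receptor was higher and 1 effector lower with the GC trend removed. The targets depend on low levels: *Sp5*, *Cdx2* and *T* passed the filter only through Tam, 3 of the 11 genes at 1 FPKM or more in both libraries were higher, and a pseudocount of 5 FPKM left 1 higher. *Axin2*, the feedback inhibitor used as a general Wnt readout, was at 5.85, 10.4 and 5.21 FPKM in WT, Tam and DoxTam, a log2 fold of 0.73. *Cdx1*, a homeobox target, was at 6.97, 14.6 and 5.02 FPKM, a log2 fold of 0.97. *Tnfrsf19*, a receptor of stem and progenitor cells, was at 3.08, 6.63 and 1.81 FPKM, a log2 fold of 0.91. For all 3 genes DoxTam was below WT. *Sp5*, *Cdx2* and *T* (Brachyury) were higher from levels under 1 FPKM, at 2.66, 2.82 and 1.92 FPKM in Tam, with *Sp5* listed at 0 in DoxTam. The filter at 1 FPKM by itself sets these Tam levels above the 95th percentile of olfactory receptor genes (0.794 FPKM), so that is no check on them. Of 31 olfactory receptor genes at the same filter 20 were higher in Tam, and the highest level was 10.4 FPKM in WT and 9.68 FPKM in Tam. All 6 Wnt genes were still higher with the olfactory mean subtracted, which does not remove such single high levels. *Sfrp5*, a secreted antagonist, was lower at -0.98. *Wls*, which carries Wnt ligands to the surface, was at 2.58, 8.15 and 4.99 FPKM, a log2 fold of 1.35, and *Ctnnb1*, encoding beta-catenin, was at 0.34.

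**Figure D5:**
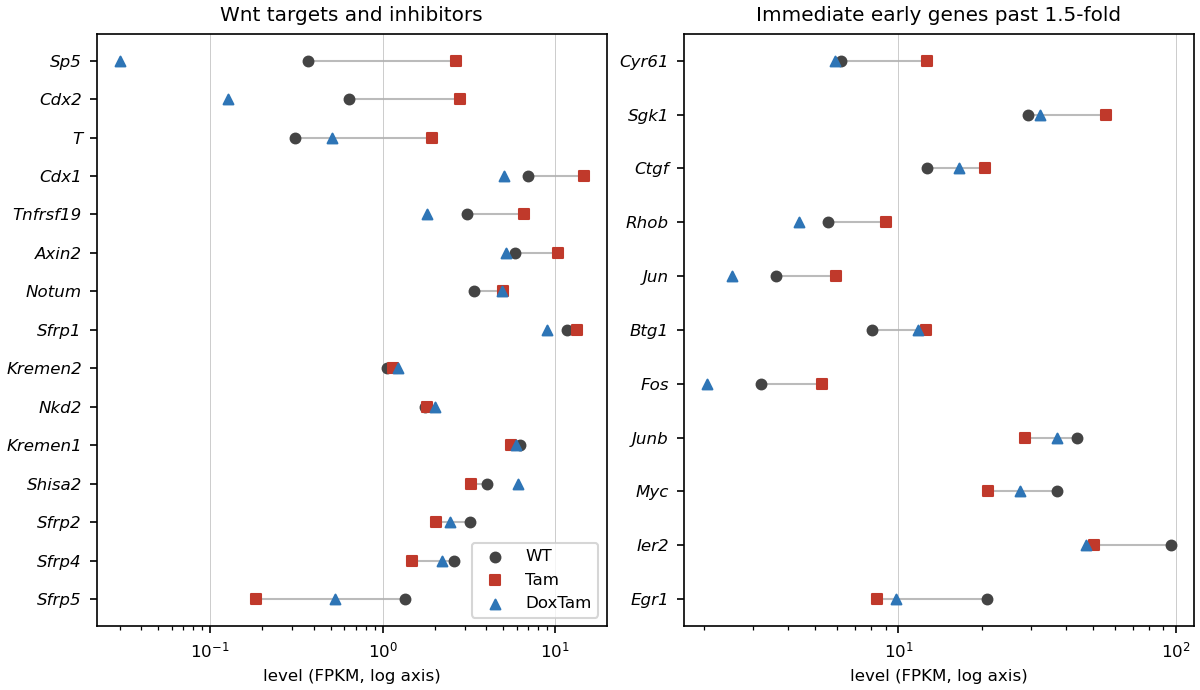
Levels (x axis, FPKM, log axis) of the 15 measured Wnt targets and inhibitors (left) and of the 11 immediate early genes past 1.5-fold (right), ordered by fold, 1 point per library; *Sp5* in DoxTam, listed at 0, is drawn at the left edge. Tam stands alone to the right for the upper Wnt targets, and *Egr1*, *Ier2*, *Myc* and *Junb* lie below WT in both treated libraries.

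Immediate early genes divided into 7 higher and 4 lower of 35 measured (20% and 11.4%, against 6.98% and 3.59% of all genes), and a pseudocount of 5 FPKM left 2 higher and 3 lower. Lower were *Egr1*, *Ier2* (95.5, 50.8 and 47.2 FPKM in WT, Tam and DoxTam, a log2 fold of -0.90), *Myc* (37.1, 21.1 and 27.5 FPKM, a log2 fold of -0.79) and *Junb* (-0.61, or -0.36 with the GC trend removed), all quickly induced by growth factors. Higher were *Cyr61* (6.22, 12.7 and 5.93 FPKM, a log2 fold of 0.92), *Ctgf* (0.65) and *Rhob* (0.60), which respond to serum and cell spreading, and the kinase gene *Sgk1* (29.2, 55.8 and 32.4 FPKM, a log2 fold of 0.91). The AP-1 genes *Fos* and *Jun* were low in WT, at 3.19 and 3.61 FPKM, and just past 1.5-fold higher in Tam at 0.59 and 0.59, and inside it once folds are centred on their median. DoxTam was below WT for both. In the FGF and ERK list 2 of 43 genes were higher and 2 lower (4.65% each way, near the shares of all genes). The phosphatase *Dusp1* was at 1.28 and the FGF carrier *Fgfbp1* at 1.12, against the ETS factor *Etv4* at -0.76 and the feedback inhibitor *Spred2* at -0.66.

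Other signalling lists were thinner. In the Nodal, activin and TGF-beta list 5 of 34 genes were higher and 2 lower (14.7% and 5.88%, against 6.98% and 3.59% of all genes). Besides *Inhbb*, the activin receptor *Acvr2b* was lower (22.9 FPKM against 14.1 FPKM, -0.67, or -0.43 with the GC trend removed), while the ligand gene *Gdf3* (10.9 FPKM against 21.7 FPKM, 0.93), the coreceptor gene *Tgfbr3* (1.14 FPKM against 2.88 FPKM, 0.85) and the activin-binding *Fst* (0.70) were higher. In the retinoic acid list 3 of 12 genes were lower and 0 higher (25% against 3.59%). After *Stra8*, these were the retinoid-binding *Crabp1* (37.4 FPKM against 22.7 FPKM, -0.70) and the receptor gene *Rara* (35.3 FPKM against 21.7 FPKM, -0.68), both inside 1.5-fold, at -0.56 and -0.51, after removal of the GC trend. Of 21 measured BMP genes 3 were higher (14.3% against 6.98% of all genes) and 0 lower, led by *Id4* (2.42 FPKM against 6.26 FPKM, 1.09, shared locus).

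Few cell cycle genes passed 1.5-fold. Of 50 DNA replication genes 0 reached 1.5-fold (median -0.09), and 1 of 50 mitosis genes did, the centromere gene *Cenpm* (-0.64). *Ccne1*, encoding cyclin E1, was at 108, 59.5 and 89.1 FPKM in WT, Tam and DoxTam, a log2 fold of -0.85. *Ccnd3*, cyclin D3, was at 173, 100.1 and 109 FPKM, a log2 fold of -0.78, at a shared locus. *Ccne2*, cyclin E2, also at a shared locus, was higher at 0.63, so the E cyclins ran in opposite directions. In the p53 list 4 of 30 genes were higher (13.3% against 6.98% of all genes) and 0 lower, and 2 were higher after removal of the GC trend. The 4 were *Trp53inp1* (60.6, 129 and 112 FPKM, a log2 fold of 1.07), *Ccng1* (0.80), *Ddb2* (0.71) and *Eda2r* (0.69).

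A few genes of the early lineages were higher in Tam from low WT levels. In the trophectoderm list 3 of 16 measured genes (of 31 listed) were higher and 0 lower: *Tfap2a* (0.577, 3.66 and 0.382 FPKM in WT, Tam and DoxTam), *Gata3* (0.09804, 1.77 and 0.213 FPKM) and *Cdx2*. In the streak and mesoderm list only 8 of 28 genes were measured and 4 were higher, *T*, *Cdx1*, *Cdx2* and the EMT factor *Snai1* (0.84). Of 39 Hox genes 6 were measured and 3 were higher, all in the Hoxc cluster: *Hoxc12* (0.9499, 3.83 and 1.16 FPKM), *Hoxc13* (2.08, 5.32 and 1.94 FPKM) and *Hoxc4* (0.66). Several of these genes passed the filter only through the Tam level, so the counts are a description. Subtracting the olfactory mean left 3, 4 and 2 higher, and a pseudocount of 5 FPKM left 1, 1 and 0. Neural genes had 3 higher and 4 lower of 27 (11.1% and 14.8%, against 6.98% and 3.59% of all genes). Of these neural folds 19 were below 0, and the median was -0.39. A pseudocount of 0.1 FPKM gave 4 higher and 9 lower. Removal of the GC trend turned the balance, with 4 higher and 2 lower of 25 and a median of -0.30. Next to *Nefm*, *Nefl* and *Nes*, the filament gene *Ina* (shared locus) was at -0.98 and *Stmn2*, a tubulin-binding growth cone protein, at 203, 122 and 125 FPKM. Germline genes had 7 lower and 3 higher of 38 (18.4% and 7.89%, against 3.59% and 6.98% of all genes), or 11 and 3 with the GC trend removed. *Piwil4*, *Smc1b* and *Kit* were at -0.78, -0.73 and -0.65, and *Stk31* and *Tex15* at 1.06 and 1.10.

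Antigen presentation and interferon genes had 6 higher and 1 lower of 26 measured. These are 23.1% and 3.85%, against 6.98% and 3.59% of all genes. The counts were the same after removal of the GC trend. *B2m*, the light chain of MHC class I, was at 20.3, 51.3 and 45.9 FPKM in WT, Tam and DoxTam, a log2 fold of 1.30, at a shared locus. *Ifitm3*, a membrane protein that blocks viral entry, was at 19.4, 45.9 and 26.5 FPKM, a log2 fold of 1.20. *Ifitm1* was at 32.3, 75.1 and 42.4 FPKM, a log2 fold of 1.19. Tam was the highest of the 3 libraries for each, and the Ifitm genes are close copies in 1 cluster. *Ifitm2*, the most abundant at 138 FPKM in WT, had a log2 fold of 0.62, and *Psmb10*, an immunoproteasome subunit, was lower at -0.75. In the proteasome family 1 of 46 genes was higher and 3 lower, and the 1 was *Psme4*, the PA200 activator, at 51.5, 138 and 76.3 FPKM, a log2 fold of 1.40.

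Zinc finger genes named Zfp600 to Zfp999 had 18 higher and 0 lower of 119 measured (15.1% against 6.98% of all genes). With the GC trend removed 8 were higher and 1 lower of the 119, where 5.31% of all genes were higher. Many of them encode KRAB proteins that silence transposons, and their transcripts are poor in GC, at a median of 43.7% in the list. *Zfp951* was at 6.07, 25.6 and 9.54 FPKM in WT, Tam and DoxTam, a log2 fold of 1.91. *Zfp758* and *Zfp600* had log2 folds of 1.33 and 1.03. *Zfp961*, the most abundant, went from 67.9 to 112 FPKM. Zfp genes with lower numbers had 8 higher and 1 lower of 173, and 2 and 0 after removal. Both medians, 0.17 and 0.11, fell on removal, to 0.06 and 0.04.

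The estrogen receptor genes *Esr1* and *Esr2* were under 1 FPKM in both libraries, so these 2 could not be followed. In the estrogen receptor list 2 of 17 measured genes were higher and 3 lower (11.8% and 17.6%, against 6.98% and 3.59% of all genes). *Hspb8*, a small heat shock protein, was at 13.6, 34.9 and 13.98 FPKM in WT, Tam and DoxTam, a log2 fold of 1.30, and the cathepsin gene *Ctsd* was at 119.9, 189 and 164 FPKM, a log2 fold of 0.65. The membrane receptor gene *Gper1* and the orphan receptor gene *Esrra*, both at shared loci, were lower, at -0.70 and -0.82. Of 9 measured genes of the xenobiotic response 1 was higher, the efflux pump *Abcb1a* (2.88 FPKM against 6.47 FPKM, 0.94).

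The chaperonin CCT (9 genes), the spliceosomal snRNP proteins (25), the DEAD and DEAH helicases (51) and the subunits of RNA polymerases II and III (23) had 0 members past 1.5-fold, and the 76 mitochondrial ribosomal protein genes had 1, *Mrps26* (-0.64), with a median of -0.07.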

How the data were processed

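RNA-seq of E14 mouse ESCs was read from 3 libraries, 1 for each condition as the labels give it, of which WT and Tam were compared and DoxTam was set beside them. The authors deposited a table for each treated condition against WT, with gene levels in FPKM. The submitters' processing notes name Cufflinks 2.0.0, TopHat, Bowtie and the build mm9, without versions for the aligners. The RNA was prepared with a stranded kit. FPKM divides by transcript length and library size, so a shift in a few abundant small RNAs changes every other level, and fragment counts were not used here. The deposited log2 fold, p-value, q-value and test score columns hold the authors' own comparison and were not used. No column was left without a library.

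Folds were computed as log2((FPKM + 1)/(FPKM + 1)) of Tam over WT for genes that reached 1 FPKM in either library, and counted at 1.5-fold, in Python 3.11.15 with pandas 2.3.3, numpy 2.4.6 and statsmodels 0.14.6. Figures were drawn with matplotlib 3.10.9. At the filter, *Smarca2* (1.0002 FPKM in Tam) lay just inside, and *3830408C21Rik* (0.9999 FPKM) just outside. With 1 library per condition no test was run. Fragment numbers are rough, taking the commonest low level above 0 as 1 fragment. GC content came from the longest protein-coding GENCODE transcript of the same build, and its trend was removed by lowess (span 0.2). Genes at 1 deposited locus are called shared, since their reads may overlap. Guides were matched to mm9, and promoters came from RefSeq (GRCm38.p6), matched by symbol or synonym for 9989 of the measured genes. Recovery of known folds was tested on simulated data.

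The gene lists, 172 in all of which 42 are tracked in the alternatives, and the members named were chosen with earlier results of these data known, and the lists partly follow them. Named genes were *Pou5f1*, *Llgl2* and *Grb7*, the 15 highest and 15 lowest folds among genes at 5 FPKM or more (without unnamed models, small RNA genes, readthrough names and genes whose status was not OK), up to 3 members per list in each direction among those past 1.5-fold, the member with the highest WT level, and any member of lists up to 45 genes with a share of calls above that of all genes. A few genes within this rule are not reported here. *Cenpm* and *Mrps26* were each the only call of their list. The alternatives tried were a pseudocount of 0.1 or 5 FPKM, no filter, filters at 5 FPKM and at 1 FPKM in both libraries, centring on the median, equal summed FPKM with and without small RNA genes, removal of the GC trend, subtraction of the olfactory receptor mean, leaving out small RNA genes, and 2-fold.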

Additional observations from a re-analysis of the deposited data

How the results depend on the processing

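No paired analysis was possible because each condition has 1 library, and for the same reason no replicate could be left out. The 12 alternatives followed 149 named genes, and no fold changed sign among those of them that were called. Other genes named in this report were not followed. The counts over all genes, 887 higher and 456 lower, moved by over 1.5 times as follows. A pseudocount of 0.1 FPKM gave 757 lower, and one of 5 FPKM gave 296 higher and 168 lower. A filter at 5 FPKM gave 500 higher, and 1 FPKM in both libraries gave 566 higher. Equal summed FPKM gave 1372 higher, 272 lower and a median of 0.15 in place of 0.02, removal of the GC trend gave 255 lower, and 2-fold gave 270 higher and 93 lower. Of 42 list medians 39 moved by over 0.1 with equal summed FPKM, 12 with a pseudocount of 5 FPKM and 10 with the GC trend removed. Of 84 list counts 54 moved by over 1.5 times at 2-fold, 37 with a pseudocount of 5 FPKM, 28 with equal summed FPKM and 23 with the GC trend removed. Of 149 named genes 81 lost their call at 2-fold and 52 with a pseudocount of 5 FPKM. Among the same genes, 24 of the 137 with a GC value lost their 1.5-fold call after removal of the GC trend, 18 changed call with equal summed FPKM, 4 with the olfactory mean subtracted (*Fos*, *Jun*, *Hoxc4* and *Zfp456*) and 2 with centring (*Fos* and *Jun*). Among those lost with equal summed FPKM were *Slc7a5*, *Psat1*, *Yars*, *Vars*, *Hist1h1t*, *Kit* and *Spred2*, and among those lost with the GC trend removed *Plod2*, *Slc38a2*, *Atp6ap2*, *Map1lc3a*, *Gcsh*, *Eno3*, *Thrsp*, *Mid1ip1*, *Ccng1*, *Ccne2* and *Tubb3*. Depth limits low genes most, and it could only be approximated here.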

Other observations

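Annexins and S100 proteins, which bind calcium and membranes, had 5 higher and 0 lower of 16 measured genes. The higher share was 31.25%, against 6.98% of all genes, and 5 were higher after removal of the GC trend. *Anxa1* was at 2.65, 5.53 and 4.87 FPKM in WT, Tam and DoxTam, *Anxa3* at 5.31, 10.01 and 7.12 FPKM and *S100a1* at 2.33, 5.19 and 1.502 FPKM. DoxTam was above WT for both annexins and below it for *S100a1*. Of 33 actin and contractile genes 2 were higher and 1 lower, led by the actin-binding *Cald1* (16.95, 34.99 and 17.2 FPKM). *Spp1*, which encodes the secreted protein osteopontin, was at 132, 219.8 and 136 FPKM.

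Imprinted genes had 8 higher and 1 lower of 38 (21.1% and 2.63%, against 6.98% and 3.59% of all genes). Of the 32 with a GC value 2 were higher and 1 lower after removal of the trend, where 5.31% of all genes were higher. Genes without a GC value leave the second count, so both counts are not over the same genes. *Plagl1*, a zinc finger factor expressed from the paternal allele, was at 8.296, 23.3 and 8.63 FPKM in WT, Tam and DoxTam. *H19* and *Rian*, noncoding RNAs expressed from the maternal allele, were at 0.351, 1.998 and 0.664 FPKM and at 0.338, 1.64 and 0.612 FPKM, both at loci shared with other genes. *Phlda2*, a brake on placental growth, was the 1 lower gene, at a log2 fold of -0.63. Nuclear noncoding RNAs had 4 higher (28.6% against 6.98% of all genes) and 0 lower of 14, among them *Malat1* at 1241, 2020.3 and 2169 FPKM.

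Respiratory complex I had 5 higher and 0 lower of 44 genes (11.4% higher against 6.98% of all genes). The family as a whole was not shifted, with a median fold of -0.02 and 22 folds above and 22 below 0. After removal of the GC trend 3 of 41 were higher, where 5.31% of all genes were higher. *Ndufa4l2*, known as a hypoxia-induced gene and at a shared locus, was at 6.84, 17.9 and 14.04 FPKM in WT, Tam and DoxTam. *Ndufa3* was at 105, 179 and 118 FPKM. Complex IV had 3 higher and 2 lower of 25 (12% and 8%, against 6.98% and 3.59% of all genes). The 2 lower genes were the tissue isoforms *Cox4i2* (-0.79 on the log2 scale, shared locus) and *Cox7a1* (-0.66). Genes of the 2-cell-like state had 2 higher and 3 lower of 19 (10.5% and 15.8%, against 6.98% and 3.59% of all genes). *Zscan4c*, a telomere-protective gene of that state, was at 4.98, 2.96 and 5.47 FPKM, and *Zscan4b* and *Usp17le* had log2 folds of -0.72 and -1.01. *Calcoco2* belongs to the same list and ran the opposite way.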
